A study of Mus musculus with 16 samples.

Results

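The genes described here are a set of 43 that are switched on in cells by type I interferon. They are a list of gene names fixed by their known part in the interferon response, put together with earlier results of these data known, and no threshold on array values entered the choice. Of the 43, 41 had a probe that could be named, among 20972 gene symbols named on the array, and 40 of those passed the filter on dim signal and were tested. Mx1 and Mx2, which encode antiviral GTPases, had no named probe and were not analysed here. Oas1g, an oligoadenylate synthetase gene, had 2 probes, and they were well above background on 0 of 16 arrays.

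Type I interferons bind a receptor of 2 chains, IFNAR1 and IFNAR2, whose kinases JAK1 and TYK2 phosphorylate STAT proteins, STAT2 among them. STAT2 and IRF9 are parts of a complex that binds the interferon-stimulated response element in gene promoters. The genes switched on include enzymes and binding proteins that act on viral RNA or entry, sensors of viral RNA, and the transcription factors of the response itself. Some of these genes also answer interferon gamma, which activated T cells make.

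The data come from a study of the ovary in graft-versus-host disease, with donor T cells of female mice on a C57BL/6 background given haematopoietic stem cells. There were 3 sources: syngeneic recipients' spleens, allogeneic recipients' spleens and allogeneic recipients' ovaries. CD8+ T cells of these sources were hybridised on 3, 3 and 4 arrays, and CD4+ T cells on 2 arrays for each source. The labels give no age, no time after transplantation, no strain of the other partner and no infection or interferon treatment, and every group had undergone a transplantation, so no group is of untreated mice. Small numbers of cells were sorted in repeated rounds and their RNA was amplified, and whether replicates came from separate mice is not stated. The p-values therefore measure the spread between these samples, which may be technical.

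Levels are log2 of the processed array signal minus the 75th percentile of that array, so a difference of 1 means a doubling of signal. Differences are given with the standard error (SE) of a limma model fitted to all features, and a gene was called when its p, adjusted over 22836 features with the Benjamini-Hochberg method, was under 0.05. Arrays are called separated when every array of one group lies above every array of the other. A level is comparable between arrays for 1 gene but not between genes, because each probe binds its target differently.

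The promoters of the 4 members with the largest called transplant differences among those with a promoter window are shown because they put the regulatory element beside the values that follow. They are the 250 bases before the RefSeq transcription start, written 5′ to 3′ on the gene's strand, build GRCm38.p6: Ifitm1 at chr7:140967826-140968075 (plus strand), Oas1a at chr5:120907526-120907775 (minus strand), Ifi44 at chr3:151749911-151750160 (minus strand) and Rsad2 at chr12:26456453-26456702 (minus strand). Capitals mark the core of the interferon-stimulated response element, searched as GAAA, any 2 bases and GAAA, on either strand.
Ifitm1: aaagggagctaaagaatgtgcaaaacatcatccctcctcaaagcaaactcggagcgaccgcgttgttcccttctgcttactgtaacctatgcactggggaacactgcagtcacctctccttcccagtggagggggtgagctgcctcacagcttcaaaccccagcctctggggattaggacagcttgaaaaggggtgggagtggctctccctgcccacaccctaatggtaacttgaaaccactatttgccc
Oas1a: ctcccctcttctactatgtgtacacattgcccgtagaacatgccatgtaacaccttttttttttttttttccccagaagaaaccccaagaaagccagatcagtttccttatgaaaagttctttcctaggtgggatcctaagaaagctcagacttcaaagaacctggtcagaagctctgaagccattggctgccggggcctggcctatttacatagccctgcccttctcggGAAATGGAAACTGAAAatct
Ifi44: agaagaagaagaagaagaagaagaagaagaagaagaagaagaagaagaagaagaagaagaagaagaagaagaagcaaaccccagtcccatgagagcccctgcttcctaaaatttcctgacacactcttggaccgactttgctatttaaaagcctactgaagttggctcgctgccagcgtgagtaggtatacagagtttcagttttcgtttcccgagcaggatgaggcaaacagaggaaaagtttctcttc
Rsad2: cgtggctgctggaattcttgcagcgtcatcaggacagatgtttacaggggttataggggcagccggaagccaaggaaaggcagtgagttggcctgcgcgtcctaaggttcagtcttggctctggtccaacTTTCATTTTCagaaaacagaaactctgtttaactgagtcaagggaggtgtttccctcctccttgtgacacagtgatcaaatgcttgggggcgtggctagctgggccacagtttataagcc

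Oas1a held 2 overlapping matches, GAAATGGAAA and GAAACTGAAA, whose first bases lie 20 and 14 bases before the start. Rsad2 held 1 on the opposite strand, 120 bases before the start. Ifitm1 and Ifi44 held none in these 250 bases, which says only that these letters are absent from the windows.

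Promoter windows of 300 bases (250 before and 50 after the start, both strands searched) were on hand for 32 of the 43 members. The response element core was found for 14 of the 32 (43.8%), against 3.99% of 27025 genes with a window. The 14 were Isg15, Ifit1, Ifit3, Oas1a, Oas1g, Oas3, Rsad2, Stat2, Ddx58, Ifih1, Bst2, Ifitm3, Trim30a and Eif2ak2. TTCNNNGAA, the palindromic site of STAT dimers, was found for 8 of the 32 (25%), against 9.55% of genes. Among members that were higher after allogeneic transplantation in either subset, 7 of the 17 with a window held the core (41.2%), and among the other tested members 6 of 14 (42.9%). The second group holds members that were not called higher, some of which had separated arrays (Eif2ak2, Isg15 and Ddx58 among those with the core), so the shares do not compare members that moved with members that did not.

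The 75th percentile of the raw signal ran from 67.6 to 450 units over the arrays, and 41.8% to 59.4% of spots were well above background. Sort markers followed the labels: Cd8a was well above background on all 10 arrays of CD8 cells (4.71 to 5.82) and on 0 of 6 arrays of CD4 cells. One library stood apart. Allogeneic splenic CD4 replicate 1 had 389 features (1.70%) more than 3 log2 units below every other array, among them the members Eif2ak2, Xaf1, Oasl1 and Parp9, which were not above background there and were on the other 15 arrays. Allogeneic splenic CD8 replicate 1 had 116 such features, Usp18 among them. The spot of Parp14 was left out on that last array as an outlier within the scan, so its values there rest on the other arrays. Both values, with and without these 2 arrays, are given for Eif2ak2, Xaf1, Parp9, Oasl1 and Usp18 where their differences come up. The 2 arrays were picked after seeing the values of these members. A call that appears only without them is therefore not independent of that choice. Ovarian CD8 replicate 1 had 96 features more than 3 log2 units below every other array, no member among them, and was kept.

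Across the arrays the median level of the 40 members was 2.16 to 2.44 in the 5 syngeneic samples, 2.86 to 2.96 in the 5 allogeneic splenic samples and 2.61 to 3.06 in the 6 ovarian samples. The median over all features lay between -0.17 and -0.07 on every array. The syngeneic samples of both subsets were thus below every allogeneic sample, while ovary and allogeneic spleen overlapped.

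**Figure D1:**
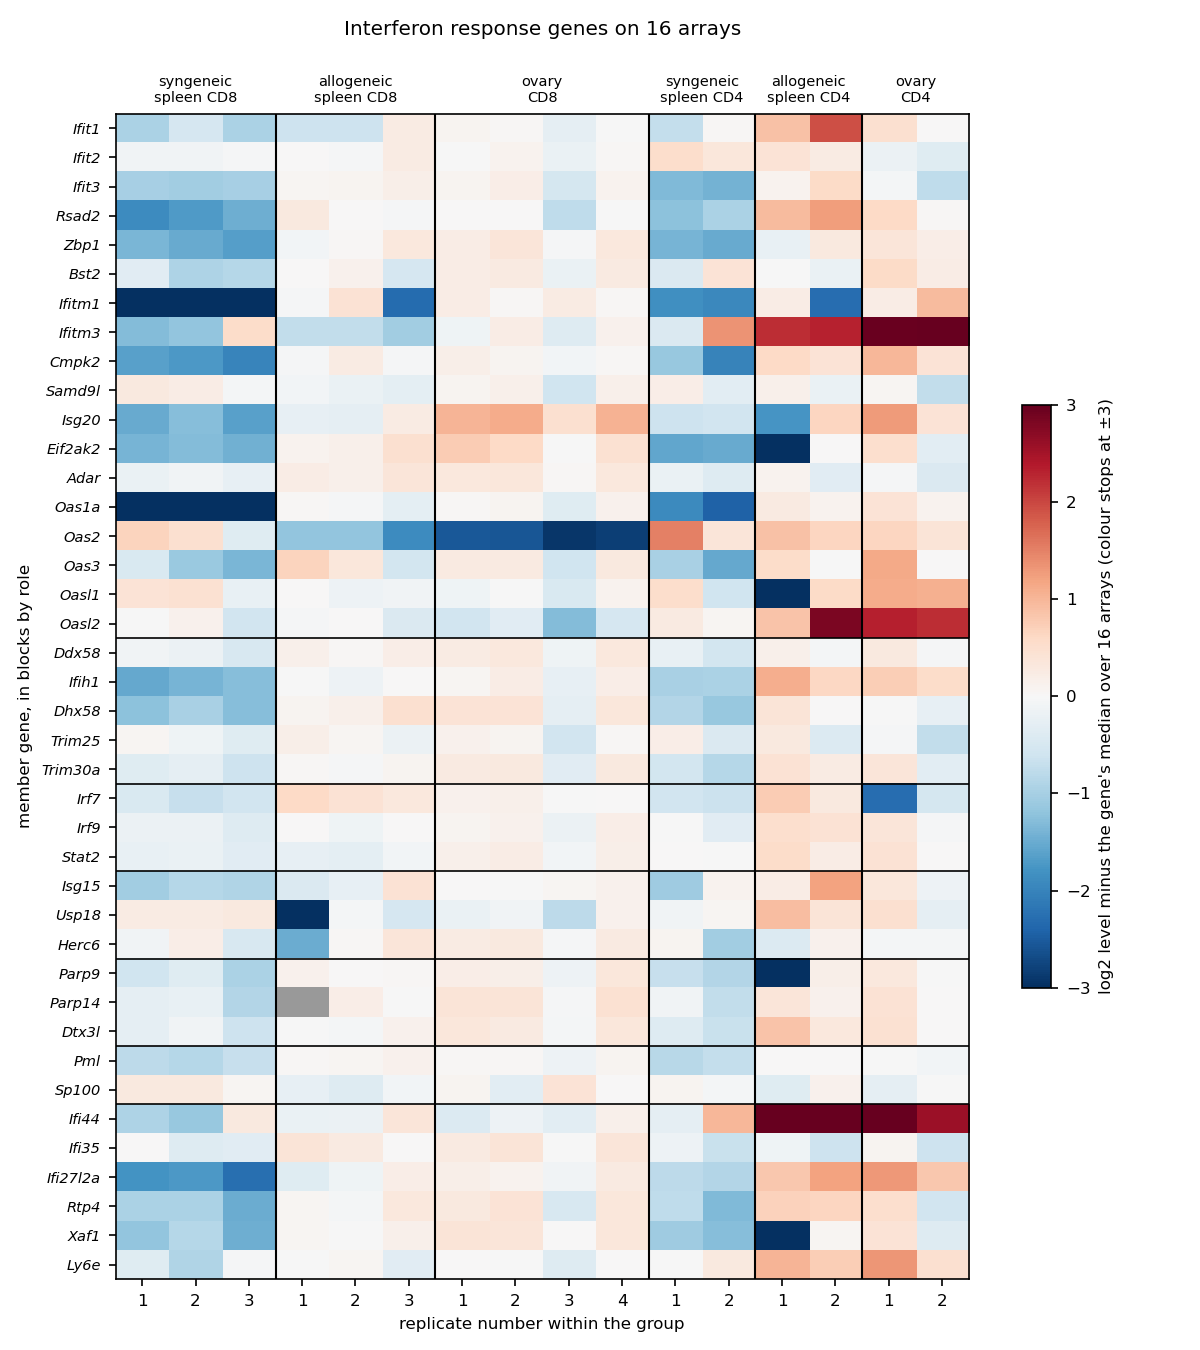
Each row is a member, in blocks by role, and each column an array. Colour gives the log2 level minus that gene's median over the 16 arrays, red above and blue below, with the scale stopped at ±3 and a grey cell where a spot was left out. Blue runs down the syngeneic columns for Oas1a, Rsad2, Cmpk2 and Zbp1 in both subsets, and red marks Ifi44, Ifitm3 and Oasl2 in the allogeneic CD4 columns.

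Splenic CD8 cells after allogeneic transplantation had more of the RNA of many interferon response genes than those after syngeneic transplantation. Of the 40 members 15 were higher and 1 was lower, against 18.8% and 19.6% of all features, so 37.5% of members were higher and 2.5% lower. In either direction 40% of members and 38.4% of features were called. The median difference was 0.57 over the members and -0.16 over all features, and 33 of 40 members were above 0. Arrays were separated for 23 members upward and 4 downward, against 24.2% and 29.3% of features. In splenic CD4 cells 16 members were higher and 0 lower, against 10.4% and 5.7% of features, with a median difference of 0.76 over the members and 0.04 over all features. There 25 members were separated upward and 0 downward, against 28.2% and 22.9% of features.

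The 2 comparisons share no array. They had 10 higher members in common, 66.7% of the 15 in CD8 cells and 62.5% of the 16 in CD4 cells: Ifit3, Oas1a, Rsad2, Ifih1, Dhx58, Ifi27l2a, Rtp4, Zbp1, Cmpk2 and Pml. Called in CD8 cells alone were Isg20, Oas3, Irf7, Ifitm1 and Adar, and in CD4 cells alone Ifit1, Oasl2, Irf9, Ifi44, Dtx3l and Trim30a. How many of all features were higher in both comparisons was not counted, so the shared 66.7% and 62.5% have no background. These sets do not show that the subsets differ, which is tested further on. When the model was fitted to the 4 CD4 arrays alone, 0 members and 7 features passed, so the CD4 calls rest on a spread estimated from all 6 groups. Within slide 1, which held 8 of the 16 arrays and every group, 20 members passed in CD8 cells and 26 in CD4 cells (20 higher and 6 lower), beside 9001 and 6307 features. Within slide 2 the members were 6 and 0, beside 1901 and 0 features. Each slide holds 1 array of each CD4 group, that of slide 1 being the allogeneic replicate that stood apart, so the CD4 counts set 1 array against 1 with a spread taken from the CD8 groups and carry no replicate check of their own. With the slide as a block the counts were 16 and 19.

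Of 18 antiviral effectors tested, 9 were higher and 1 lower in CD8 cells, beside 18.8% and 19.6% of all features. In CD4 cells 7 were higher and 0 lower, beside 10.4% and 5.7% of features. Among these effectors, oligoadenylate synthetases make a short messenger that sets off RNA decay. Oas1a stood at 2.32, 2.39 and 1.67 in syngeneic and at 5.57, 5.53 and 5.27 in allogeneic splenic CD8 cells, a difference of 3.33 ± 0.22 (adjusted p = 2.98e-07). Its CD4 arrays stood at 3.65 and 3.12 against 5.83 and 5.66, a difference of 2.36 ± 0.27 (adjusted p = 0.000186). All allogeneic arrays lay far above all syngeneic ones, and a second probe gave 3.67 ± 0.34 and 2.50 ± 0.37.

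Oas3, the largest enzyme of the family, stood at -1.52, -2.17 and -2.44 against -0.39, -0.72 and -1.62 in CD8 cells, with overlapping groups and a difference of 1.13 ± 0.40 (adjusted p = 0.0426). That call ended without any 1 of 4 of the 6 arrays (allogeneic replicate 1 or 2, syngeneic replicate 2 or 3), where the differences reached down to 0.87. In CD4 cells the difference of Oas3 was 1.53 ± 0.49 and did not pass, although the arrays were separated. Oas2 went the other way in CD8 cells and was the 1 member that fell there. It stood at 2.73, 2.56 and 1.72 in syngeneic and at 0.89, 0.90 and 0.19 in allogeneic cells, separated, with a difference of -1.68 ± 0.33 (adjusted p = 0.00151). In CD4 cells the arrays of Oas2 overlapped, with a difference of -0.18 ± 0.40.

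Oasl2, a family member related to the synthetases, stood at 0.15 and -0.06 against 0.73 and 2.71 in CD4 cells, a difference of 1.67 ± 0.50 (adjusted p = 0.0417). Its size hung on 1 array, being 0.68 and not called without allogeneic replicate 2 and 2.66 without allogeneic replicate 1, and the call also ended without either syngeneic array. In CD8 cells its difference was 0.01 ± 0.41. For Oasl1, a related gene, differences were -0.29 ± 0.80 in CD8 and -1.67 ± 0.98 in CD4 cells, where allogeneic replicate 1 stood at -2.53, not above background, and replicate 2 at 2.04. Without the 2 arrays that stood apart Oasl1 differed by -0.34 ± 0.32 and 0.62 ± 0.43, neither called.

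Rsad2 encodes viperin, a radical enzyme that makes a chain-terminating nucleotide. It stood at -1.36, -1.16 and -0.92 in syngeneic and at 0.84, 0.56 and 0.51 in allogeneic CD8 cells, a difference of 1.78 ± 0.23 (adjusted p = 8.2e-05). CD4 cells went from -0.69 and -0.41 to 1.48 and 1.80, a difference of 2.19 ± 0.29 (adjusted p = 0.000454). Cmpk2, a mitochondrial nucleotide kinase and the neighbour of Rsad2 in the genome, followed the same pattern. It stood at -0.20, -0.28 and -0.56 against 1.40, 1.67 and 1.39 in CD8 cells (1.83 ± 0.22, adjusted p = 3.97e-05). Its CD4 arrays stood at 0.28 and -0.58 against 2.02 and 1.84 (2.08 ± 0.27, adjusted p = 0.000423). A second probe of Cmpk2 gave 1.91 ± 0.17 and 1.80 ± 0.21.

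The IFIT proteins bind foreign RNA ends. Ifit3 stood at 0.44, 0.40 and 0.45 in syngeneic CD8 cells and at 1.48, 1.52 and 1.62 in allogeneic ones (1.11 ± 0.22, adjusted p = 0.0017), and at 0.12 and 0.01 against 1.54 and 2.01 in CD4 cells (1.71 ± 0.27, adjusted p = 0.00136). Ifit1 stood at -0.08, 0.36 and -0.09 against 0.23, 0.25 and 1.11 in CD8 cells, which overlapped (0.46 ± 0.32, not called). The CD4 arrays stood at 0.14 and 0.89 against 1.73 and 2.80 (1.75 ± 0.39, adjusted p = 0.0104), and the call ended without allogeneic replicate 2 (1.22) or syngeneic replicate 1 (1.37). Ifit2 differed by 0.17 ± 0.13 and -0.10 ± 0.16. The 3 genes, close relatives in 1 cluster, therefore did not share 1 pattern of calls.

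Zbp1, a sensor of unusual nucleic acids that can start cell death, stood at 2.63, 2.49 and 2.35 in syngeneic and at 3.93, 4.04 and 4.33 in allogeneic CD8 cells (1.61 ± 0.17, adjusted p = 1.35e-05). CD4 cells had 2.62 and 2.49 against 3.79 and 4.29 (1.48 ± 0.21, adjusted p = 0.000677). A second probe, listed under another transcript accession, gave 0.82 ± 0.21, called, and 0.64 ± 0.26, not called. With the main probe of Zbp1 the groups were separated in both subsets.

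Ifitm1, a membrane protein that hinders viral entry, had the largest difference of any member in CD8 cells. It stood at -2.88, -1.28 and -4.11 in syngeneic cells, the last not above background, and at 1.75, 2.21 and -0.52 in allogeneic cells (3.91 ± 0.81, adjusted p = 0.00237). The groups were separated but each was spread over more than 2 log2 units. In CD4 cells it stood at -0.07 and -0.16 against 2.01 and -0.51, which overlapped (0.86 ± 0.99). Its relative Ifitm3 differed by -0.19 ± 0.49 in CD8 cells. In CD4 cells Ifitm3 stood at -2.24 and -0.45 against 0.43 and 0.51, separated but not called (1.81 ± 0.60, adjusted p = 0.0594), and called at 2.71 without syngeneic replicate 2.

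Isg20, an exonuclease for single-stranded RNA, stood at 2.92, 3.17 and 2.81 against 4.18, 4.16 and 4.70 in CD8 cells (1.38 ± 0.47, adjusted p = 0.0342). Its arrays were separated, but the call held with none of the 6 arrays left out, where differences ran from 1.21 to 1.48 and the adjusted p reached 0.09. Its CD4 difference was 0.03 ± 0.57, with allogeneic arrays at 2.66 and 5.09, the low one again replicate 1. Each of these arrays decided the sign: without replicate 1 the difference was 1.25 (adjusted p = 0.0432) and without replicate 2 it was -1.18 (adjusted p = 0.0442), so this probe gives no settled direction in CD4 cells. A second probe of Isg20 was called in both subsets (1.57 ± 0.22 and 1.42 ± 0.27).

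Adar, an enzyme that edits double-stranded RNA, stood at 3.72, 3.81 and 3.67 against 4.14, 4.07 and 4.27 in CD8 cells (0.43 ± 0.16, adjusted p = 0.0465). That call also held with none of the 6 arrays left out, and a second probe differed by -0.15 ± 0.21. Eif2ak2, the kinase PKR that stops translation on double-stranded RNA, stood at 0.10, 0.17 and 0.04 against 1.59, 1.63 and 1.97 in CD8 cells. These arrays were separated, yet the difference of 1.63 ± 1.07 did not pass. Without allogeneic splenic CD4 replicate 1 and allogeneic splenic CD8 replicate 1 it was 1.70 ± 0.26 and called. In CD4 cells Eif2ak2 stood at -0.08 and -0.03 against -4.83 and 1.50, a difference of -1.61 ± 1.31 that became 1.55 ± 0.34 and was called without allogeneic replicate 1. Leaving out replicate 2 instead, which keeps only the array below background, gave called differences of -4.78 for Eif2ak2 and, likewise in CD4 cells, -5.68 for Xaf1, -6.48 for Parp9 and -3.96 for Oasl1. Bst2, which tethers virions to the cell surface, differed by 0.59 ± 0.25 (called at 0.77 without syngeneic replicate 1 and 0.78 without allogeneic replicate 3) and -0.10 ± 0.31, and Samd9l, a translation inhibitor, by -0.36 ± 0.25 and 0.03 ± 0.31.

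The RNA sensors moved together in part. Ifih1 encodes MDA5, the sensor of long double-stranded RNA. It stood at 0.68, 0.81 and 0.94 against 2.20, 2.05 and 2.23 in CD8 cells (1.35 ± 0.16, adjusted p = 4.14e-05) and at 1.23 and 1.26 against 3.30 and 2.83 in CD4 cells (1.82 ± 0.20, adjusted p = 0.000143). A dimmer probe, above background on 9 arrays, gave 0.49 ± 0.49 and 0.97 ± 0.60. Dhx58, the related LGP2, stood at 0.11, 0.37 and 0.06 against 1.43, 1.51 and 1.83 in CD8 cells (1.41 ± 0.20, adjusted p = 0.00018). CD4 cells had 0.47 and 0.20 against 1.73 and 1.36 (1.21 ± 0.25, adjusted p = 0.00683). Every allogeneic array lay above every syngeneic one for both genes.

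Ddx58, which encodes the third sensor RIG-I, differed by 0.39 ± 0.17 and 0.44 ± 0.20, separated in both subsets but not called (adjusted p = 0.0845 and 0.172), and a second probe gave -0.23 ± 0.28 and -0.17 ± 0.34. Trim25, the ligase that activates RIG-I, stood at 5.34, 5.16 and 4.93 against 5.47, 5.36 and 5.11 in CD8 cells (0.17 ± 0.27) and differed by 0.06 ± 0.33 in CD4 cells. Trim30a stood at 2.28 and 1.99 against 3.27 and 3.07 in CD4 cells (1.04 ± 0.26, adjusted p = 0.0179), a call that ended without allogeneic replicate 1 (0.94) or either syngeneic array (1.19 and 0.90). In CD8 cells Trim30a differed by 0.44 ± 0.21. Of the 5 genes of this group 2 were higher in CD8 and 3 in CD4 cells, beside 18.8% and 10.4% of all features. A group of 5 genes is too small to read these counts as shares.

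Irf7, the factor that amplifies interferon production, stood at 0.03, -0.19 and -0.09 in syngeneic and at 1.10, 0.93 and 0.80 in allogeneic CD8 cells (1.03 ± 0.32, adjusted p = 0.0247). The groups were separated, yet the call ended without allogeneic replicate 1 or 2 or syngeneic replicate 2 or 3, with differences between 0.95 and 1.10 throughout. In CD4 cells Irf7 stood at -0.09 and -0.15 against 1.26 and 0.78, a like difference of 1.14 ± 0.40 that did not pass. Irf9, a DNA-binding partner of STAT2, stood at 3.95 and 3.62 against 4.47 and 4.38 in CD4 cells (0.64 ± 0.19, adjusted p = 0.036), and passed with none of the 4 arrays left out (0.47 to 0.81). Its CD8 difference was 0.22 ± 0.15. Stat2 differed by 0.05 ± 0.15 in CD8 cells and by 0.39 ± 0.18 in CD4 cells.

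ISG15 is a ubiquitin-like protein attached to other proteins, HERC6 is its ligase in mice and USP18 removes it and also damps the receptor. Isg15 stood at 4.50, 4.67 and 4.62 against 5.11, 5.28 and 5.97 in CD8 cells (0.85 ± 0.32, adjusted p = 0.0543) and at 4.47 and 5.65 against 5.76 and 6.74 in CD4 cells (1.19 ± 0.40, adjusted p = 0.0598). Both were separated and both narrowly missed the threshold, while a second probe of Isg15 passed in both (0.92 ± 0.25 and 1.28 ± 0.31). Without allogeneic splenic CD4 replicate 1 the main probe passed in CD4 cells at 1.68, and without syngeneic replicate 2 at 1.78. Herc6 differed by -0.24 ± 0.42 and 0.35 ± 0.51, and its second probe was called in both subsets (0.73 ± 0.14 and 0.96 ± 0.18). Usp18 stood at 2.37, 2.36 and 2.40 in syngeneic CD8 cells and at -2.71, 2.05 and 1.60 in allogeneic ones (-2.06 ± 0.90, not called). The low array is allogeneic replicate 1, and the other 2 also lay below all syngeneic ones. Without replicate 2 or 3 the difference was called at -2.93 or -2.71, and without the 2 arrays that stood apart it was -0.55 ± 0.28 and not called. In CD4 cells Usp18 stood at 1.99 and 2.17 against 3.03 and 2.50 (0.68 ± 1.11), and the value was 0.41 ± 0.38 without those arrays.

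PARP9 and DTX3L form a complex that marks histones and viral proteins, and PARP14 is a further ADP-ribosyl transferase. Dtx3l stood at 3.14 and 2.88 against 4.40 and 3.84 in CD4 cells (1.11 ± 0.24, adjusted p = 0.00891). That call ended without allogeneic replicate 1 (0.83) or syngeneic replicate 2 (0.98), and a second probe gave 1.01 ± 0.21. Parp14 stood at 3.92, 3.94 and 3.29 against 4.37 and 4.17 in CD8 cells (0.55 ± 0.26, fitted without the missing spot) and differed by 0.66 ± 0.29 in CD4 cells. It was separated in both subsets and called in neither. Parp9 stood at 2.87, 3.10 and 2.52 against 3.61, 3.47 and 3.50 in CD8 cells, separated (0.70 ± 1.24, not called), and without the 2 arrays that stood apart it was 0.66 ± 0.20 and called (adjusted p = 0.026). In CD4 cells it stood at 2.79 and 2.60 against -3.79 and 3.64, a difference of -2.76 ± 1.52, where without allogeneic replicate 1 it was 0.95 ± 0.26 and called.

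Pml, the organiser of the nuclear bodies, stood at 2.11, 2.03 and 2.19 against 2.92, 2.94 and 3.02 in CD8 cells (0.85 ± 0.11, adjusted p = 7.18e-05). In CD4 cells it stood at 2.05 and 2.17 against 2.89 and 2.90 (0.78 ± 0.13, adjusted p = 0.00242). Its arrays were among the most even of the set, but a second probe differed by only 0.16 ± 0.31 and 0.15 ± 0.38. Sp100, another protein of these bodies, differed by -0.45 ± 0.19, with allogeneic arrays all below the syngeneic ones but not called, and by -0.13 ± 0.23.

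Among the other induced genes, Ifi27l2a stood at 6.59, 6.64 and 6.10 against 8.02, 8.25 and 8.56 in CD8 cells (1.83 ± 0.21, adjusted p = 2.23e-05). In CD4 cells it stood at 7.58 and 7.50 against 9.18 and 9.58 (1.84 ± 0.25, adjusted p = 0.000578), so the size was almost the same in both subsets from different starting levels. Rtp4, a chaperone of membrane receptors, stood at 4.22, 4.21 and 3.67 against 5.22, 5.11 and 5.48 in CD8 cells (1.23 ± 0.30, adjusted p = 0.00688). In CD4 cells it stood at 4.40 and 3.84 against 5.85 and 5.80 (1.70 ± 0.37, adjusted p = 0.00954), and the call ended without syngeneic replicate 2 (1.42). All these arrays were separated.

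Ifi44 stood at -3.14 and -1.87 in syngeneic and at 0.94 and 0.68 in allogeneic CD4 cells (3.31 ± 0.49, adjusted p = 0.000916), the largest CD4 difference of any member. In CD8 cells it stood at -3.79, -4.00 and -2.58 against -3.08, -3.05 and -2.50, which overlapped (0.58 ± 0.40). Xaf1 stood at 2.41, 2.73 and 2.13 against 3.66, 3.59 and 3.75 in CD8 cells, separated (1.24 ± 1.16), and was called at 1.24 ± 0.25 without the 2 arrays that stood apart. In CD4 cells Xaf1 stood at 2.52 and 2.31 against -3.26 and 3.65 (-2.22 ± 1.42), which became 1.23 ± 0.32 and was called without allogeneic replicate 1. A second probe of Xaf1 was called lower in both subsets (-4.08 ± 0.35 and -2.85 ± 0.43). That is opposite to the main probe in CD8 cells, and in CD4 cells only without allogeneic replicate 1. Which probe measures the gene was not settled, so no direction is given for it. Ly6e differed by 0.34 ± 0.26 and 0.73 ± 0.31, and Ifi35 by 0.46 ± 0.23 and 0.04 ± 0.28.

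**Figure D2:**
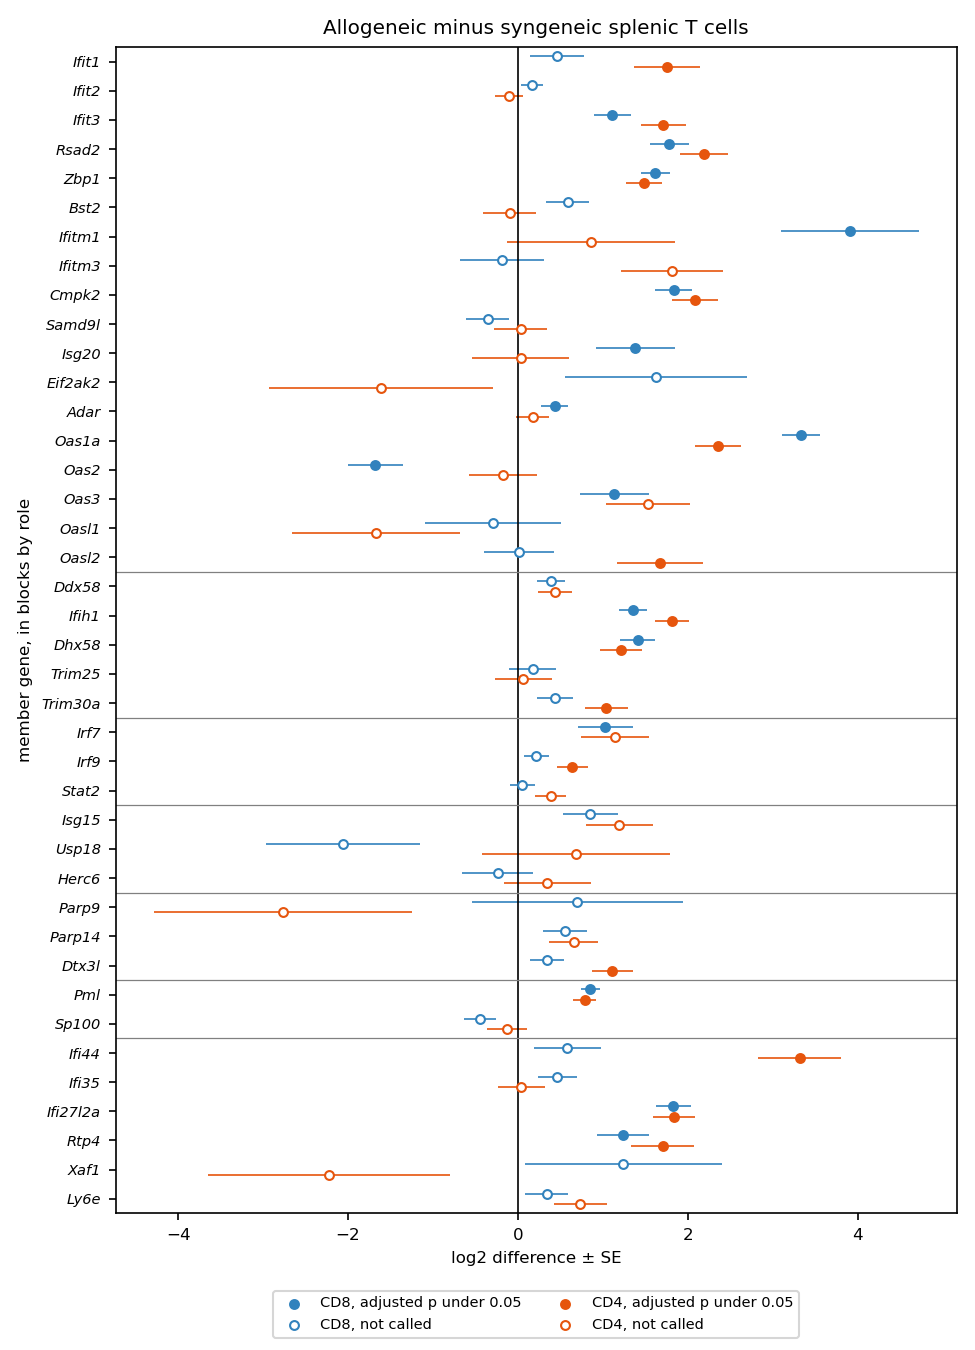
Points give the allogeneic minus syngeneic log2 difference of each member in splenic CD8 (blue) and CD4 (orange) cells, bars the SE, and filled points an adjusted p under 0.05. Most filled points lie right of 0, with Oas2 in CD8 cells at -1.68 the exception, and among the widest bars are those of genes with 1 outlying array (Eif2ak2, Xaf1, Parp9, Oasl1, Usp18).

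Other cells could be present in a sort, and in bulk RNA a change in the share of cells cannot be told apart from a change per cell. Summed over the 6 B-cell marker genes, the level relative to each array's 75th percentile was 14.3 to 23.2 in syngeneic and 2.64 to 4.76 in allogeneic splenic CD8 cells, and 32.6 to 69.6 against 8.59 to 9.26 in CD4 cells. Over 7 of 8 macrophage marker genes it was 6.24 to 9.67 and 4.86 to 6.69 in CD8 cells, and 17.3 to 32.2 and 39.4 to 69.7 in CD4 cells. Of 5 stromal marker genes the sum was 1.49 to 1.66 in allogeneic against 0.451 to 0.53 in syngeneic CD4 cells, with overlap in CD8 cells. The 8 measured T-cell markers of 9 summed to 1055 to 1142 against 826 to 981 in CD8 cells and to 894 to 1067 against 678 to 750 in CD4 cells. Granulosa markers, 5 genes, summed to 19.7 to 21.1 against 21.95 to 27.4 in CD8 cells and to 24.1 to 26.6 against 20.3 to 22.1 in CD4 cells. Only 1 of these 5 genes was detected on every array of each splenic group, and 3 or 4 were detected on none. Of the 5 stromal genes 2 were detected on every array of each splenic group and 2 or 3 on none. In CD4 cells the allogeneic sums also lay below the syngeneic ones for 3 NK-cell genes (0.195 to 0.252 against 1.19 to 1.54) and 4 erythroid genes (2.82 to 16.4 against 19.7 to 48.4). So B-cell markers were lower and T-cell markers higher beside the members in both subsets, and macrophage and stromal markers were higher beside them in CD4 cells, while the CD8 arrays of both lists overlapped. No macrophage marker was undetected in an allogeneic group. The part of these cells in the differences was not tested.

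The transplant difference itself was compared between subsets by an interaction, the CD8 difference minus the CD4 difference. Only Ifi44 was called (-2.73 ± 0.63, adjusted p = 0.0172), so 0 members were higher and 1 lower, against 5.27% and 6.67% of features (11.9% in either direction). The call ended without syngeneic splenic CD4 replicate 1 (-2.10). It also ended within slide 2, in the groups compared alone and without the 2 arrays that stood apart. Over the settings other than 1 array left out, the interaction of Ifi44 ran from -3.35 to -1.76. The count was 3 without allogeneic splenic CD8 replicate 3, beside 4229 features, and 2 without syngeneic splenic CD8 replicate 3, beside 2166 features. With all arrays 2727 features were called. Leaving out an array of a splenic CD4 group leaves 1 array there, so calls of those fits are not counted here. Oas1a differed between subsets by 0.97 ± 0.35, Rsad2 by -0.41 ± 0.37 and Ifi27l2a by -0.01 ± 0.32, none of them called. Ifitm1 had an interaction of 3.04 ± 1.28 and Oas2 of -1.50 ± 0.51, which did not pass either. The calls made in 1 subset only are therefore not shown to be particular to it. With all arrays fitted Ifi44 is the exception, within the limits given above.

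**Figure D3:**
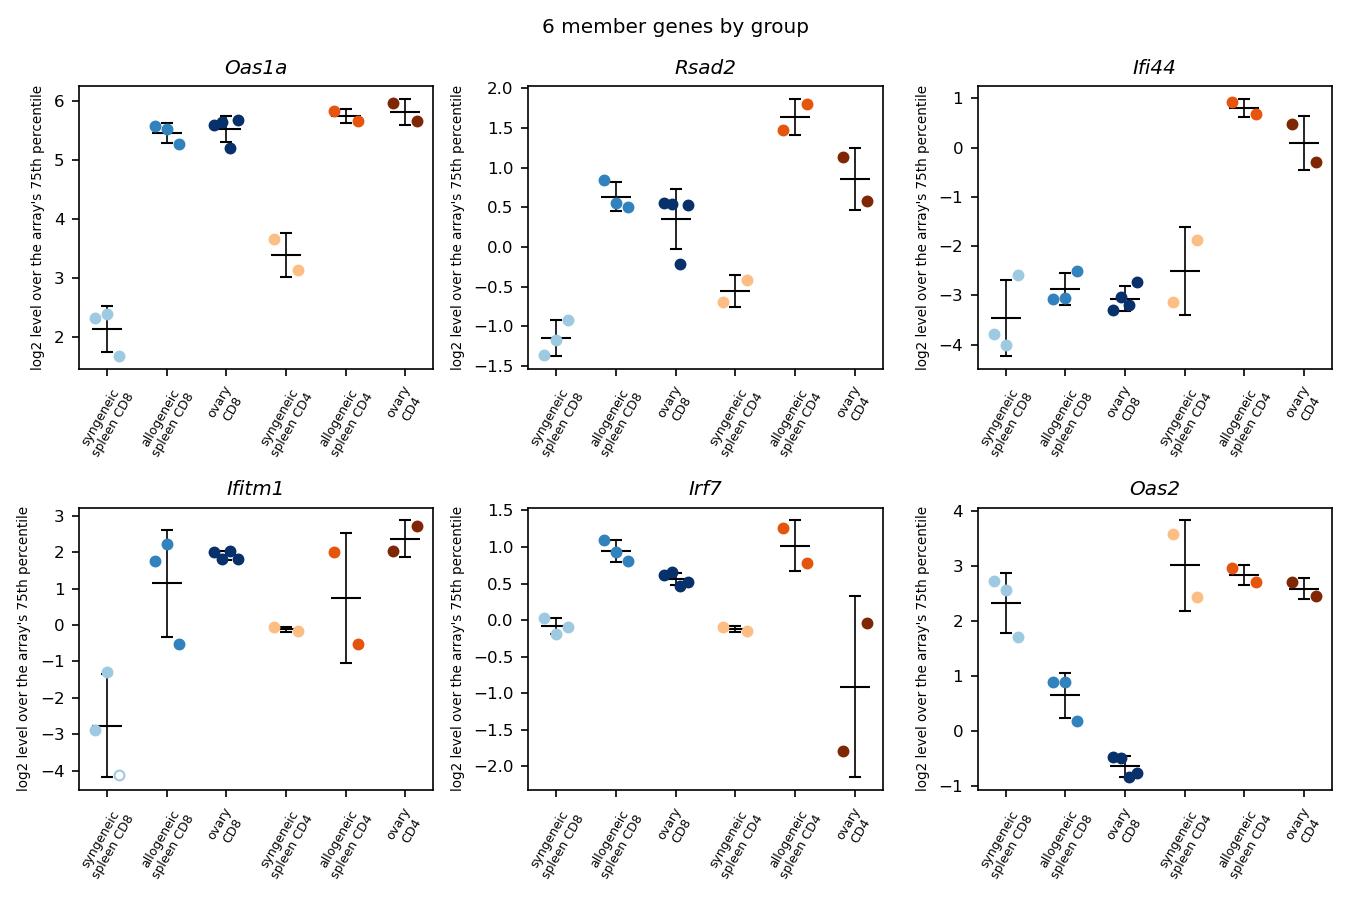
Each panel shows 1 member, each point an array (open where the spot was not well above background), with the group mean as a line and the SD as a bar, on a log2 axis relative to the array's 75th percentile. Oas1a and Rsad2 are low only in the 2 syngeneic groups, Ifi44 is high only in CD4 cells of allogeneic spleen and ovary, Irf7 dips in ovarian CD4 cells, and Oas2 steps down from syngeneic to allogeneic spleen to ovary in CD8 cells.

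Between ovary and spleen after allogeneic transplantation few features of the array were called, and the members' counts lay near that background. In CD8 cells 0 were called in either direction by limma, against 0.263% of features higher and 0.267% lower, and 3 had an unadjusted p under 0.05. The median difference was 0.09 over the members and 0.03 over all features, and arrays were separated for 2 members upward and 2 downward, against 7.37% and 5.32% of features. In CD4 cells 0 were higher and 1 lower, against 0.394% and 0.512% of features (0.906% in either direction), and 10 had an unadjusted p under 0.05. The share of features at that unadjusted level was not counted in either subset, so those counts have no background. The median in CD4 cells was -0.03 over the members and -0.04 over all features. There 4 were separated upward and 10 downward, against 15.7% and 18% of features. These comparisons use the same allogeneic splenic arrays as the transplant comparisons, so a sample that is off in the spleen moves both. With 2 arrays a group in CD4 cells a difference that was not called is not shown to be absent.

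The 6 members with the largest called rises in CD8 cells had overlapping arrays in ovary and allogeneic spleen. Ifitm1 stood at 2.00, 1.82, 2.04 and 1.81 in the ovary, against 1.75, 2.21 and -0.52 in spleen (0.77 ± 0.76). Ifi27l2a differed by 0.21 ± 0.19. Oas1a stood at 5.59, 5.64, 5.20 and 5.67 in the ovary, 0.07 ± 0.21 from spleen. Rsad2 stood at 0.56, 0.54, -0.21 and 0.53 (-0.28 ± 0.22), Cmpk2 at 1.60, 1.52, 1.34 and 1.45 (-0.01 ± 0.21), and Zbp1 at 4.24, 4.37, 3.97 and 4.33 (0.13 ± 0.16). Replicate 3 was the lowest ovarian array for Oas1a, Rsad2, Cmpk2 and Zbp1. Oas2, the member that was lower after allogeneic transplantation, was lower still in the ovary, as given next. The intervals of 1 SE leave room for small differences that this number of arrays does not resolve.

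The 4 separated members in CD8 cells were Isg20, Ifitm3, Oas2 and Irf7. Isg20 stood at 5.45, 5.55, 4.93 and 5.48 in ovary against 4.18, 4.16 and 4.70 in spleen (1.01 ± 0.44). Ifitm3 stood at -1.92, -1.57, -2.19 and -1.67 in ovary against -2.53, -2.53 and -2.83 (0.79 ± 0.46). Below the spleen lay Oas2, at -0.47, -0.48, -0.84 and -0.75 in ovary (-1.29 ± 0.30), and Irf7, at 0.62, 0.65, 0.47 and 0.51 (-0.38 ± 0.30). None of these differences passed the adjusted threshold.

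The 1 call between tissues was Irf7 in CD4 cells, at -1.79 and -0.04 in ovary against 1.26 and 0.78 in spleen (-1.93 ± 0.40, adjusted p = 0.0435). It rested on single arrays: without allogeneic splenic CD4 replicate 1 it was -1.69 and not called (adjusted p = 0.128), and without ovarian CD4 replicate 1 it was -1.06 (adjusted p = 0.0461). Without allogeneic splenic CD4 replicate 2 the spleen is left with replicate 1, the array that stood apart, so calls of that fit are not counted here. Fitted to the 4 arrays alone, 0 members and 0 features were called. Ifit1 stood at 1.35 and 0.88 in ovarian CD4 cells (-1.15 ± 0.39), Ifit3 at 1.39 and 0.68 (-0.74 ± 0.27) and Rsad2 at 1.13 and 0.58 (-0.78 ± 0.29). These 3 lay below both splenic arrays and did not pass. Eif2ak2 (3.25 ± 1.31), Xaf1 (3.40 ± 1.42), Parp9 (3.70 ± 1.52) and Oasl1 (2.79 ± 0.98) had the largest positive values, and without the 2 arrays that stood apart they were 0.08 ± 0.35, -0.05 ± 0.33, -0.01 ± 0.26 and 0.50 ± 0.43. In CD8 cells Usp18 went from 1.56 ± 0.85 to 0.05 ± 0.27 in the same way. Ifi27l2a at 9.68 and 9.18 (0.05 ± 0.25) and Oas1a at 5.96 and 5.65 (0.07 ± 0.27) overlapped the spleen.

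Whether the tissue difference itself differed between CD8 and CD4 cells was tested as an interaction, in which limma called 0 members and 0 features, or 0% in each direction. An unadjusted p under 0.05 was reached by 4 members, again without a counted share of features. Leaving out allogeneic splenic CD4 replicate 2 or ovarian CD4 replicate 2 leaves 1 array in that group, so calls of those fits are not counted here. Without ovarian CD4 replicate 2 the interaction of Irf7 was 2.43 in place of 1.55.

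In the ovary and in allogeneic spleen, CD8 cells had less RNA of a small number of members than CD4 cells from the same source. In the ovary 1 member was higher and 7 were lower in CD8 cells, against 8.47% and 9.03% of features. In allogeneic spleen 0 were higher and 11 lower, against 15.2% and 14.3% of features, and in syngeneic spleen 0 and 2, against 1.27% and 2.88%. The members called lower were 17.5%, 27.5% and 5% in ovary, allogeneic and syngeneic spleen. In either direction 20%, 27.5% and 5% of members were called, against 17.5%, 29.4% and 4.14% of features. The share called was thus near that of all features, and the members differed in that their calls were mostly downward. Arrays were separated upward and downward for 3 and 10 members in the ovary (27.8% and 20.2% of features), 4 and 17 in allogeneic spleen (23.3% and 26%) and 3 and 9 in syngeneic spleen (21.8% and 12.6%). The median differences were -0.03, -0.23 and -0.07 over the members and 0.07, -0.06 and 0.10 over all features, so most members lay near those of all features and a few lay far below. Fitted to the arrays compared alone, 7, 3 and 0 members were called, beside 5425, 1075 and 416 of all features.

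Among members called lower in CD8 cells, the largest gaps were those of Ifi44, Ifitm3, Oas2 and Oasl2. In allogeneic spleen Parp9 (3.60 ± 1.39), Xaf1 (3.47 ± 1.30), Eif2ak2 (3.40 ± 1.20) and Usp18 (-2.45 ± 1.01) had gaps of like size that were not called. Without the 2 arrays that stood apart these were -0.16 ± 0.26, 0.02 ± 0.33, 0.30 ± 0.35 and -0.67 ± 0.38. Oasl1 went from 1.63 ± 0.90 to -0.71 ± 0.43 there, and its ovarian gap of -1.22 ± 0.85 was called without those arrays, with a smaller SE (0.30). Ifi44 stood at -3.30, -3.04, -3.20 and -2.72 in ovarian CD8 cells against 0.49 and -0.30 in ovarian CD4 cells (-3.16 ± 0.42, adjusted p = 0.00052), and differed by -3.69 ± 0.44 in allogeneic spleen (adjusted p = 0.000181). Ifitm3 stood at 1.17 and 1.80 in ovarian CD4 cells (-3.32 ± 0.52, adjusted p = 0.00158) and differed by -3.10 ± 0.55 in allogeneic spleen (adjusted p = 0.00192). Oas2 stood at 2.72 and 2.45 in ovarian CD4 cells (-3.22 ± 0.34, adjusted p = 0.000117) and differed by -2.18 ± 0.36 in allogeneic spleen (adjusted p = 0.00135). In syngeneic spleen these 3 differed by -0.95 ± 0.44, -1.09 ± 0.55 and -0.68 ± 0.36, none called. Both allogeneic sources thus held gaps of more than 2 log2 units. Whether the splenic gap differs between transplants is the interaction given above, which was called for Ifi44 and for no other member.

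Oasl2 stood at -0.70, -0.45, -1.42 and -0.61 in ovarian CD8 cells against 2.21 and 2.10 in CD4 cells (-2.95 ± 0.44, adjusted p = 0.00106). In allogeneic spleen it differed by -1.98 ± 0.46 (adjusted p = 0.00802), which was -0.99 and not called without allogeneic splenic CD4 replicate 2. Ifi27l2a was lower in CD8 cells of all 3 sources: -0.94 ± 0.22 in ovary (adjusted p = 0.0124), -1.10 ± 0.23 in allogeneic spleen (adjusted p = 0.00458) and -1.10 ± 0.23 in syngeneic spleen (adjusted p = 0.017). The ovarian call ended without ovarian CD4 replicate 1 (-0.69), and the syngeneic call without either CD4 array (-1.06 and -1.13). Oas1a was lower in CD8 cells of syngeneic spleen (-1.26 ± 0.25, adjusted p = 0.0108), a call that ended without syngeneic CD4 replicate 1 (-0.99), and not of the other sources (-0.28 ± 0.23 and -0.28 ± 0.25).

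Smaller gaps were called for Ly6e, an entry factor on the cell surface, at 5.45, 5.43, 5.07 and 5.47 in ovarian CD8 cells against 6.76 and 5.92 (-0.98 ± 0.27, adjusted p = 0.0287) and -0.97 ± 0.29 in allogeneic spleen (adjusted p = 0.0246). The ovarian value was -0.56 and not called without ovarian CD4 replicate 1, and the call also ended without any 1 of the 4 ovarian CD8 arrays. The splenic call of Ly6e ended without either CD4 array (-0.83 and -1.12) or CD8 replicate 3 (-0.85). Ifih1 was lower in both allogeneic sources (-0.58 ± 0.17, adjusted p = 0.0379, and -0.90 ± 0.18, adjusted p = 0.00387), the ovarian call holding with none of the 6 arrays left out (-0.48 to -0.68).

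In allogeneic spleen Ifit1 (-1.74 ± 0.35, adjusted p = 0.00414), Stat2 (-0.59 ± 0.16, adjusted p = 0.0192) and Irf9 (-0.50 ± 0.17, adjusted p = 0.0425) were also lower. Rsad2 was lower there too, at 0.84, 0.56 and 0.51 in CD8 against 1.48 and 1.80 in CD4 cells (adjusted p = 0.0142). The call of Rsad2 ended without CD4 replicate 2 (-0.84). That of Stat2 ended without CD4 replicate 1 (-0.43) or CD8 replicate 1 or 2 (-0.57 and -0.55), and that of Irf9 without any 1 of the 5 arrays. In the ovary and in syngeneic spleen these 4 were not called, and no interaction was called for them, so they are not shown to differ between the sources. The 1 member higher in CD8 cells was Irf7 in the ovary (1.48 ± 0.34, adjusted p = 0.0127). It was 0.60 and not called without ovarian CD4 replicate 1 and 2.35 without ovarian CD4 replicate 2.

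**Figure D4:**
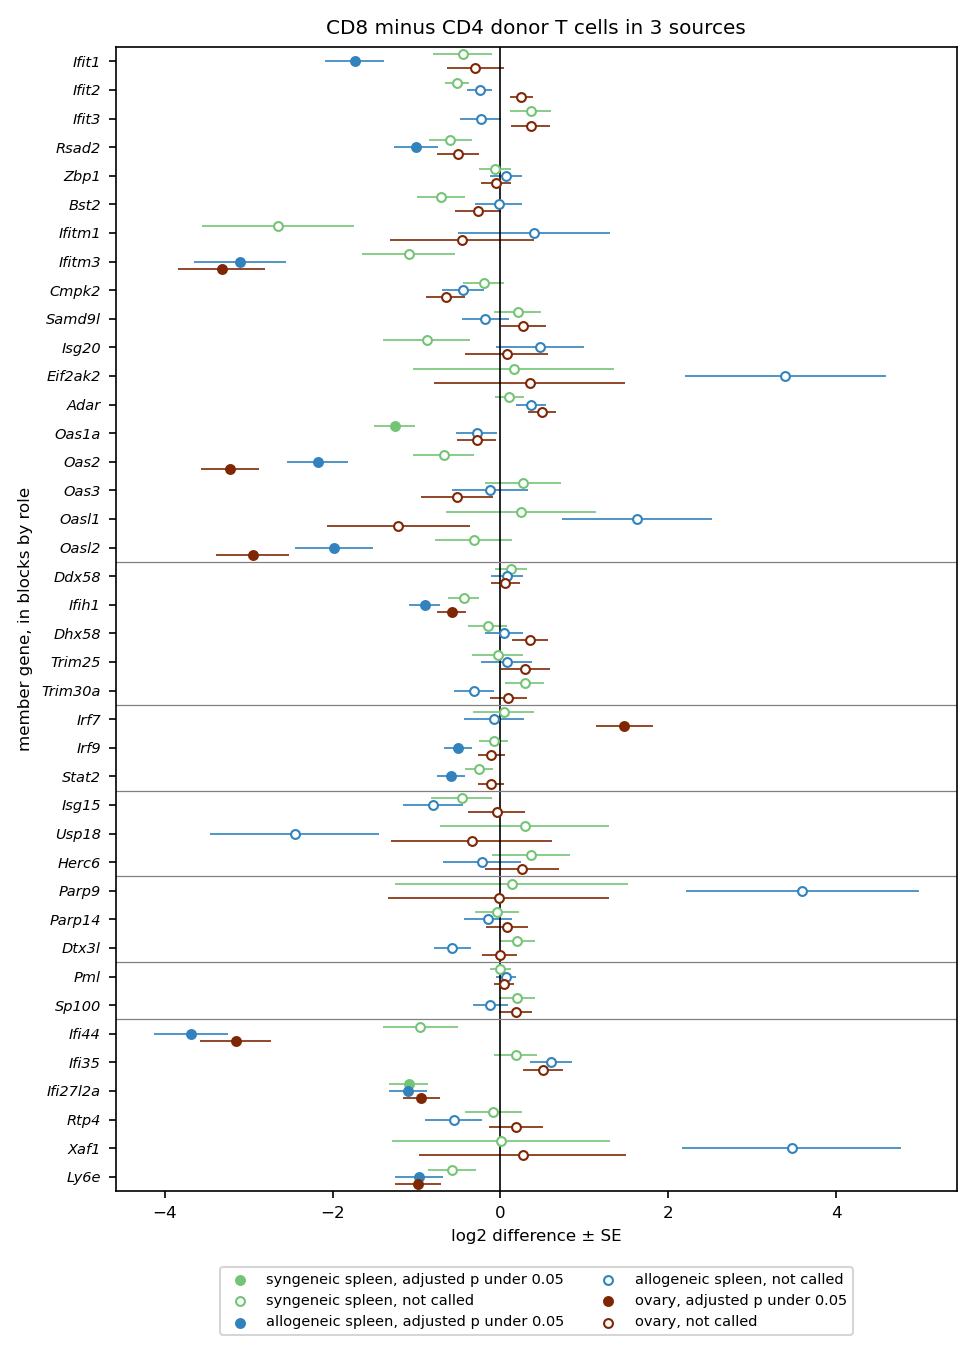
Points give the CD8 minus CD4 log2 difference of each member in syngeneic spleen (green), allogeneic spleen (blue) and ovary (brown), bars the SE, and filled points an adjusted p under 0.05. In ovary Ifi44, Ifitm3, Oas2 and Oasl2 stand apart at the left. In allogeneic spleen they share the left with Usp18 at -2.45 and Ifit1 at -1.74, and Parp9, Xaf1 and Eif2ak2 lie beyond 3 on the right with wide bars.

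Macrophage markers ran the same way as these gaps. Their summed level was 29.4 to 67.2 in ovarian CD4 and 6.71 to 7.60 in ovarian CD8 cells, and 39.4 to 69.7 against 4.86 to 6.69 in allogeneic spleen, with 17.3 to 32.2 against 6.24 to 9.67 in syngeneic spleen. All 7 measured markers were detected on every CD4 array. In CD8 cells 5 of 7 were detected on every ovarian array, 2 on every allogeneic and 4 on every syngeneic splenic array, with Mrc1 undetected on all arrays of syngeneic splenic CD8 cells. The part of macrophage RNA in the lower CD8 values was not tested. The plasmacytoid dendritic list, which holds the member Bst2, summed to 381 to 522 in ovarian CD4 and 226 to 334 in ovarian CD8 cells, and to 370 to 571 against 39.5 to 346 in allogeneic spleen. Neutrophil markers summed to 2.68 to 9.69 in allogeneic splenic CD4 and 0.0277 to 0.358 in allogeneic splenic CD8 cells. The conventional dendritic list was higher in CD8 than in CD4 cells of the ovary (10.7 to 14.1 against 2.15 to 2.73) and of allogeneic spleen (8.96 to 10.2 against 1.98 to 2.55), as were the NK-cell genes (1.96 to 2.80 against 0.506 to 0.557, and 1.80 to 2.81 against 0.195 to 0.252). Stromal and granulosa sums were lower in CD8 cells of both sources, with only 1 or 2 of the 5 genes of each list detected on every array of a group. B-cell sums were lower in CD8 cells of both spleens. Their part was not tested either.

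The genes upstream of the response were taken from lists of the pathway. Of 19 interferon ligand genes 10 were tested, and Ifnb1, Ifna4 and Ifne were well above background on 0 of 16 arrays. The background for these lists is again 18.8% of features higher and 19.6% lower in CD8 cells, and 10.4% and 5.7% in CD4 cells. After allogeneic transplantation 1 ligand was higher and 5 lower in CD8 cells and 1 higher and 1 lower in CD4 cells. The higher one in both was Ifng, the type II interferon, by 3.75 ± 0.54 in CD8 (adjusted p = 0.000184) and 2.11 ± 0.67 in CD4 cells (adjusted p = 0.05). The lower ones in CD8 cells were Ifnk (-2.89 ± 0.50), which was above background on 0 of the 3 allogeneic arrays, and Ifna14, Ifnab, Ifna2 and Ifna5, each between -0.87 and -0.72. Those alpha interferon probes were dim, with group means of -3.78 to -2.24 in CD8 spleen, and near-identical genes of the cluster can bind the same probe.

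Of 9 receptor and Janus kinase genes 0 were higher and 2 lower in CD8 cells, and 2 were higher and 1 lower in CD4 cells, where 18.8% and 19.6% of all features, and 10.4% and 5.7%, were called. With so few genes these counts do not stand apart from those shares. Ifngr2, the signalling chain of the interferon gamma receptor, was lower in both (-3.85 ± 0.36, adjusted p = 4.95e-06, and -2.84 ± 0.44, adjusted p = 0.00125). Ifngr1, its binding chain, was higher in CD4 cells (1.28 ± 0.18), as was Jak2 (0.76 ± 0.19). Ifnar1 and Ifnar2, the type I receptor, differed by -0.19 ± 0.92 and -0.39 ± 0.96 in CD8 cells. In CD4 cells they differed by -3.37 ± 1.12 and -2.81 ± 1.17, and each was above background on only 1 of the 2 allogeneic arrays. Neither CD4 difference was called, so no direction is given for the type I receptor there.

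Of 13 STAT, IRF and inhibitor genes 4 were higher and 2 lower in CD8 cells and 1 higher and 1 lower in CD4 cells, again beside 18.8% and 19.6%, and 10.4% and 5.7%, of features. Stat4 was higher in both (0.82 ± 0.17 and 0.93 ± 0.21). Irf4, a factor induced by antigen receptor signals, was higher in CD8 cells (2.86 ± 0.25, adjusted p = 2.85e-06), and Ptpn6, a phosphatase that restrains cytokine signals, was lower there (-1.16 ± 0.17).

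Of 14 tested genes of nucleic acid sensing 2 were higher and 2 lower in CD8 cells and 2 higher and 1 lower in CD4 cells, counts at or near the same feature shares. Trex1, a DNase that clears cytosolic DNA, was higher in both (1.12 ± 0.21 and 0.81 ± 0.23) and Aim2, a DNA sensor, was lower in both (-0.56 ± 0.19 and -1.33 ± 0.24). Of 20 genes shared with interferon gamma 5 were higher and 1 lower in CD8 cells, and 6 were higher and 0 lower in CD4 cells. Gbp3 (1.28 ± 0.18 and 1.50 ± 0.22) and Gbp7 (1.14 ± 0.18 and 0.73 ± 0.22), GTPases that attack the vacuoles of microbes, were higher in both. Cxcl9, a chemokine that draws activated T cells, went opposite ways, at -2.60 ± 0.47 in CD8 and 3.85 ± 0.57 in CD4 cells. Between ovary and spleen limma called 0 genes of these 5 lists in either subset, where 0.53% of features in CD8 and 0.906% in CD4 cells were called.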

How the data were processed

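Expression was measured on 16 one-colour arrays on 2 slides. The deposited scanner files hold spot intensity, background-subtracted and detrended, per the file headers. The software was Agilent Feature Extraction 11.5.1.1. The authors' deposited series matrix holds log2 values, which matched the centred values computed here (r at least 0.9998).

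Log2 processed signal was shifted by each array's 75th percentile. Control and outlier spots were left out, and 0 spots were saturated. Of 55681 probes, 27656 were named through RefSeq accessions (assembly GRCm38.p6), and 31122 passed a filter that asked for signal well above background throughout 1 or more groups. The brightest probe stood for its gene. limma 3.58.1 in R 4.3.3 was fitted with 1 mean per group (residual degrees of freedom 10, prior 2.16) and tested on simulated data.

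The members, lists and named-gene rule (members called anywhere, separated by at least 1 log2 unit in 2 of 4 main comparisons, or brightest of their role) were chosen with earlier results of these data known. One gene of the lists is not reported here. Replicate numbers are from the titles. Same-numbered arrays did not deviate together in every pair, so they were not treated as pairs. Alternatives were quantile and normexp normalization, the series matrix, filters, mean probe, slide, replicate block, groups alone, and arrays left out. The array's own coordinates use another build and are not printed.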

Additional observations from a re-analysis of the deposited data

Results flagged for a closer look

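In ovarian CD8 cells, the 1 group of 4 arrays, replicate 3 lay below the other 3 by more than the critical value of Dixon's test for 15 of the 40 members (37.5%), against 6.61% of all features low on that array. The critical value is set so that chance flags about 1 group in 20 on any array and in either direction, and 13.5% of all features passed it here. The 15 flags come from 1 array, replicate 3, and are not independent of each other. Its levels, each followed by the lowest of the other 3 arrays, were 4.93 and 5.45 for Isg20, -1.66 and -0.80 for Oas3, -0.21 and 0.53 for Rsad2, 1.09 and 1.68 for Dhx58, and 4.03 and 4.46 for Bst2. For Rtp4 they were 4.69 and 5.45, for Xaf1 3.59 and 3.93, for Parp14 4.14 and 4.57, for Dtx3l 3.48 and 3.81, and for Trim25 4.71 and 5.33. For Trim30a they were 2.49 and 3.09, for Herc6 0.26 and 0.54, for Adar 3.96 and 4.25, for Samd9l 3.78 and 4.45, and for Ly6e 5.07 and 5.43. With that array left out, 0 members were called between ovary and spleen in CD8 cells, as with it.

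The transplant difference of Ifi44 differed between the subsets, with an interaction of -2.73 ± 0.63 (adjusted p = 0.0172 by limma). That call ended without syngeneic splenic CD4 replicate 1, within slide 2, in the groups alone and without the 2 arrays that stood apart. The transplant difference was above 0 but not called in CD8 cells, with overlapping arrays, and over 3 log2 units in CD4 cells. Signals of Ifi44 in CD8 cells were dim, which limits the precision of that comparison.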

How the results depend on the processing

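The 55 differences of members called in some comparison kept their direction under each alternative setting that gave a value (12 or 13) and with each array of the groups compared left out in turn (4 to 10 a comparison; 1001 values, 0 reversed), and 802 of them also stayed past the threshold. Of the 55, 32 were kept with every array left out in turn, and 4 under every other setting: Oas1a, Zbp1, Ifi27l2a and Cmpk2 in the CD8 transplant comparison. The cause of the changes below was not tested, except that 1 slide or the groups alone leave fewer arrays. In the settings of the next paragraph the count of all features called moved the same way as that of the members, with these exceptions. Features called were 6394 in place of 6721 for allogeneic spleen under normexp and 957 in place of 946 for syngeneic spleen with the mean probe. They were 2586 in place of 2727 for the transplant interaction under quantile normalization.

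Members called numbered 0 between ovary and spleen in CD8 cells, and 1 with slide as a block, 2 within slide 1 and 1 without the 2 dimmest arrays. In CD4 cells, where 1 was called, there were 2 under normexp, 0 without a filter, 7 within slide 1, 0 within slide 2, 0 in the groups alone, 6 without the 2 dimmest arrays and 0 without the 2 arrays that stood apart (a setting chosen after seeing the data). For the transplant difference, CD8 cells had 6 within slide 2 in place of 16, and CD4 cells 26 within slide 1, 0 within slide 2 and 0 in the groups alone in place of 16. Between subsets, the ovary had 0 within slide 2 in place of 8. Allogeneic spleen had 17 under normexp, 20 within slide 1, 0 within slide 2 and 3 in the groups alone in place of 11. Syngeneic spleen had 1 with the mean of a gene's probes, 0 within slide 2 and 0 in the groups alone in place of 2. The tissue interaction had 9 within slide 1 and 6 without the 2 dimmest arrays in place of 0. The transplant interaction had 2 under quantile normalization, 5 under normexp, 2 with slide as a block, 12 within slide 1, 0 within slide 2, 0 in the groups alone and 7 without the 2 dimmest arrays in place of 1.

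With 1 array left out the counts ran, in the same order, from 0 to 0, 0 to 8, 12 to 16, 12 to 18, 5 to 7, 9 to 13, 0 to 2, 0 to 5 and 1 to 7. The highest counts of the CD4 tissue comparison and of both interactions came without allogeneic splenic CD4 replicate 2. Calls over all features rose in those same runs. Normexp moved the median of all features in the CD8 transplant comparison from -0.16 to -0.04 and that of the members from 0.57 to 0.39.

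With the replicate number as a block the counts were 0, 0, 17, 17, 6, 12, 1, 0 and 3. Same-numbered arrays share only a number: 3 of 6 samples between CD8 ovary and spleen, and 5 of 6 in the CD8 transplant comparison, correlated best with their own number. Few arrays per group and signals near background limit the precision of dim genes such as Ifitm1, Ifitm3 and Ifi44.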

Other observations

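The other probe of Xaf1, well above background on all 16 arrays, went against the main one in CD8 spleen. In CD4 spleen it did so only when allogeneic replicate 1 was left out. It lay between 3.13 and 3.83 in the 5 syngeneic samples and between -1.27 and 0.93 in the 11 allogeneic samples, with differences of -4.08 ± 0.35 in CD8 and -2.85 ± 0.43 in CD4 spleen, both called by limma. The main probe was higher in allogeneic CD8 spleen on every array.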
